A study of Mus musculus with 8 samples.

Results

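The genes described here are those of glycolysis, lactate handling and the pentose phosphate pathway in mouse preSC cells, a cultured model of precancerous neuroendocrine lung cells, after targeting of Max. The list was given by gene name and matched to the symbols of the deposited counts. It held 39 names, of which 38 were among the 23284 genes in the files. The remaining name, Pkm, is the current symbol of the gene that the files call Pkm2. Of these 38 members, 36 were among the 13358 genes that passed the filter on low counts, and Ldhb and Pdk4 were not. All 8 libraries came from cells of mixed 129/SvJ; C57BL/6 strain that carried a Chga-GFP reporter and the alleles Rblox/lox, p53lox/lox and p130lox, so the controls share these alleles. In the 4 MaxKO libraries the cells had received a single guide RNA against Max, and in the 4 Ctrl libraries a control guide. Both were puromycin-selected, expanded polyclonal populations, that is, mixtures of differently edited cells rather than single clones.

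Glycolysis splits glucose into pyruvate in a chain of cytosolic steps, several of which can be carried out by products of more than one gene. Lactate dehydrogenase turns pyruvate into lactate, which monocarboxylate transporters carry across the membrane, and pyruvate dehydrogenase kinases restrain the entry of pyruvate into the mitochondrial cycle. The pentose phosphate pathway branches off at glucose 6-phosphate and supplies NADPH in its oxidative arm and ribose phosphate in its non-oxidative arm. MAX is the partner with which MYC proteins bind the E-box CACGTG, and many glycolytic genes are known targets of MYC and of the hypoxia factor HIF1.

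Max itself was measured at 42.3, 42.3, 59.1 and 68.0 normalised read counts (CPM, counts scaled by library size with TMM factors) in MaxKO libraries 1 to 4, against 65.5, 70.2, 75.2 and 61.9 CPM in Ctrl libraries 1 to 4. The groups overlapped, and the log2 fold change of -0.37 (SE 0.15) did not pass edgeR's quasi-likelihood test (adjusted p = 0.0955), although it did without MaxKO library 4 (-0.52, adjusted p = 0.0228). Myc was at 26.3 to 30.1 CPM in MaxKO and at 40.9, 45.9, 176 and 23.7 CPM in Ctrl libraries 1 to 4, so Ctrl library 3 stood far above the rest (-1.37, SE 0.59, adjusted p = 0.136). Mycn was at 6.64 to 8.36 CPM in MaxKO and 9.20 to 11.3 CPM in Ctrl and was lower (-0.44, adjusted p = 0.0191). The part of either gene in the results was not tested. An edit that disrupts the protein need not lower the transcript, so this is a weak check of the labels. Libraries held 13711278 to 19804949 counts in genes, and 3 counts equal 0.151 to 0.219 CPM, given as a guide to very low levels (counting error only). Genes were left out of the test by the filter on low counts and not by this level. The 9 neuroendocrine markers were all tested, with a summed level of 6827 to 7677 CPM in MaxKO and 6240 to 8221 CPM in Ctrl. Markers of haematopoietic cells and endothelium summed to at most 5.64 and 2.12 CPM in any library, and those of other lung epithelium to 6.30 to 8.60 CPM in MaxKO and 8.30 to 9.62 CPM in Ctrl. The 7 fibroblast markers summed to 49.3 to 65.8 CPM in MaxKO and 24.7 to 45.1 CPM in Ctrl, nearly all of it Dcn, which was higher in MaxKO (0.77, edgeR adjusted p = 0.0124). Pdgfra was lower (0.260 against 1.35 CPM, -2.37, adjusted p = 0.00423), Thy1 was at 0.0300 against 0.601 CPM and not tested, Lum was at 0 everywhere, and Col1a1, Col1a2 and Col3a1 did not exceed 0.403 CPM. The part of these markers in the results was not tested. Ctrl libraries 3 and 4 stood apart from Ctrl libraries 1 and 2, with 23.3% and 23.4% of uniquely aligned reads outside annotated exons against 18.5% and 18.6%, and MaxKO libraries lay between at 20.5% to 21.5%. Values against either pair of controls are therefore also given for members whose call differs between the pairs or whose fold change differs widely. All use the same 4 MaxKO libraries. This split was made after the data were seen, and its p-values leave out the spread between the pairs of controls. They describe dependence on the controls and are not separate support for a call. No label says whether replicates are separate cultures, and the p-values may thus measure technical spread only.

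Against all 4 controls, glycolytic genes fell more often than they rose, and 1 of 7 pentose phosphate genes was called. Of the 36 tested members, 11 were lower and 3 higher in MaxKO at a Benjamini-Hochberg adjusted p under 0.05 in edgeR's test over all genes. These counts moved with the controls used: 13 were lower and 9 higher against Ctrl libraries 1 and 2 alone (44.6% of all genes called), and 13 were lower and 0 higher against Ctrl libraries 3 and 4 alone (20.7% of all genes called). Against all controls that is 38.9% of members called, beside 23.1% of all tested genes. Lower members made up 30.6% (all genes 12.2%) and higher members 8.33% (all genes 10.9%). Over all genes, 52.8% of calls were falls, a share that upper-quartile scaling raised to 62.9%. The members' median log2 fold change was -0.11, and that of all tested genes was -0.0036. For 12 of the 36 members the 4 MaxKO values lay wholly outside the range of the 4 Ctrl values, as they did for 26.4% of all tested genes. Outside the pentose branch, 11 of 29 tested members fell and 2 rose (median -0.16). In the pentose branch none of 7 fell and 1 rose (median 0.06), although Rpe was lower against Ctrl libraries 1 and 2 alone (-0.40, adjusted p = 0.00183). Among these 7 genes, 14.3% were called, beside 23.1% of all tested genes, and 3 had negative log2 fold changes. With 12.2% of all genes lower, none of 7 is near the share over all genes. The difference between the branches was not tested. All 38 members together held 0.530%, 0.504%, 0.494% and 0.493% of the counts in MaxKO libraries 1 to 4 and 0.505%, 0.552%, 0.679% and 0.629% in Ctrl libraries 1 to 4. Ctrl library 1 lay within the MaxKO range, and Ctrl libraries 3 and 4 were the highest.

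**Figure D1:**
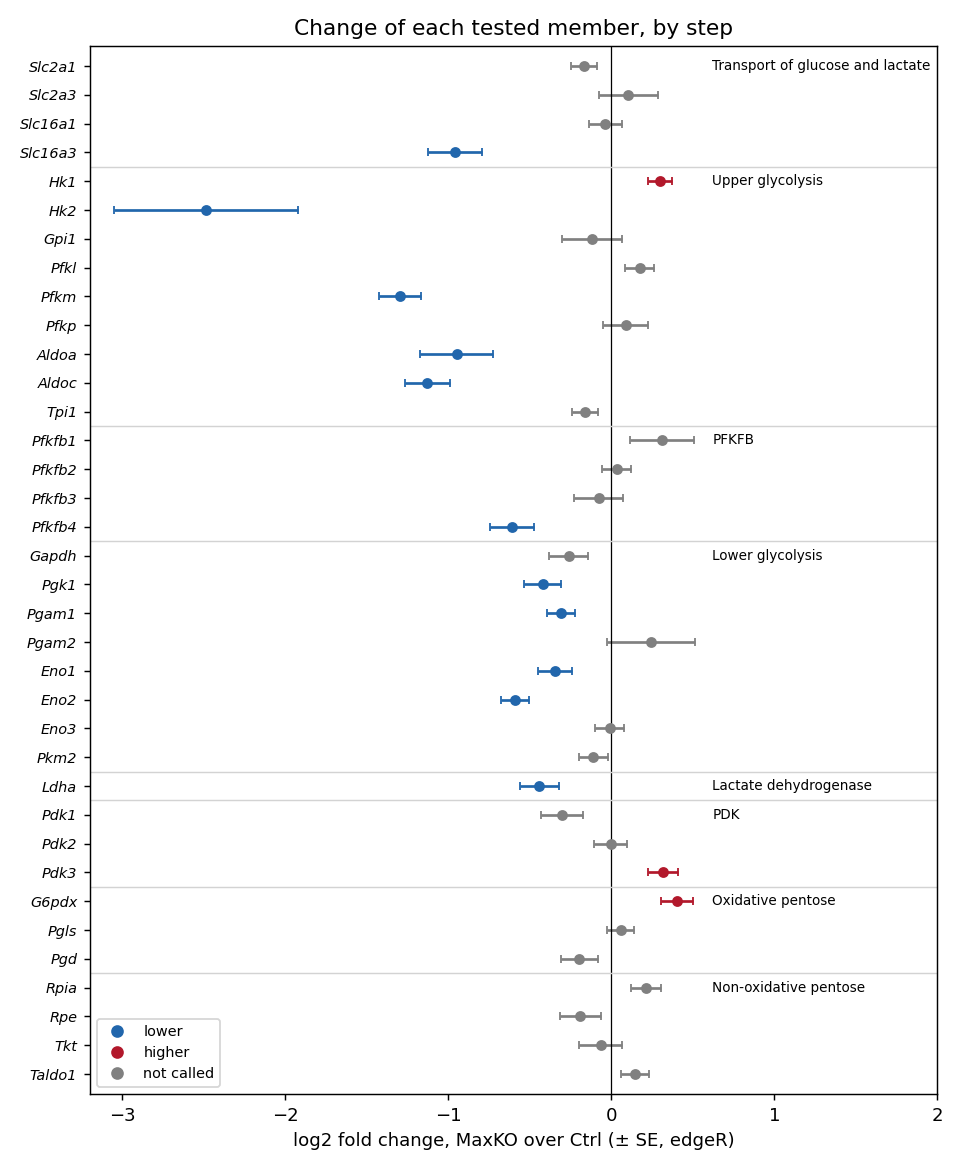
Log2 fold change of MaxKO over Ctrl (x axis, ± SE from edgeR) for the 36 tested members (y axis), grouped by step, with called genes in colour. The falls run from -2.49 for Hk2 to -0.31 for Pgam1, and the rises, of Hk1, Pdk3 and G6pdx, reach at most 0.40.

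Of the glucose transporter genes, the members Slc2a1 and Slc2a3 did not pass the test. Slc2a1, the main glucose transporter gene of dividing cells, was at 64.1, 62.8, 62.9 and 68.2 CPM in MaxKO libraries 1 to 4 and at 76.0, 74.3, 63.2 and 75.8 CPM in Ctrl libraries 1 to 4. Ctrl library 3 alone lay within the MaxKO range. The log2 difference was -0.17 (SE 0.08, edgeR adjusted p = 0.156), and without Ctrl library 3 it was -0.22 and passed. Against Ctrl libraries 1 and 2 alone it was -0.22 (adjusted p = 0.0160), and against libraries 3 and 4 alone -0.12 (adjusted p = 0.434). Slc2a3, a high-affinity transporter gene, stood at 2.17 to 3.12 CPM over all 8 libraries (0.10, SE 0.18).

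At the hexokinase step, which traps glucose in the cell as glucose 6-phosphate, the 2 measured genes changed in opposite directions. Hk2, the inducible hexokinase gene, was at 1.41, 0.863, 1.22 and 1.02 CPM in MaxKO libraries 1 to 4 and at 2.11, 3.61, 15.0 and 5.33 CPM in Ctrl libraries 1 to 4. Every MaxKO value lay below every Ctrl value, but the controls spread widely and Ctrl library 3 was the highest by far. The log2 fold change was -2.49 (SE 0.56, edgeR adjusted p = 0.00935), and it was -1.68 without Ctrl library 3, -1.30 against Ctrl libraries 1 and 2 and -3.14 against Ctrl libraries 3 and 4. Hk1, the widely expressed hexokinase gene, was at 220, 228, 231 and 241 CPM in MaxKO and at 179, 174, 190 and 205 CPM in Ctrl. All MaxKO values were above all Ctrl values (0.30, SE 0.07, adjusted p = 0.0122). This call ended without Ctrl library 2 (0.26, adjusted p = 0.0536) and against Ctrl libraries 3 and 4 only (0.21, adjusted p = 0.0955), and against Ctrl libraries 1 and 2 only it was 0.38. Per kilobase of annotated exon, Hk1 stood at 38.5 CPM and Hk2 at 1.16 CPM in Ctrl, and in MaxKO at 47.4 and 0.201 CPM, so Hk1 was the more abundant of the pair in both groups.

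Gpi1, which encodes the isomerase that follows hexokinase, depended on which controls were used. It was at 347, 311, 291 and 290 CPM in MaxKO, at 225 and 274 CPM in Ctrl libraries 1 and 2, and at 429 and 417 CPM in Ctrl libraries 3 and 4. The MaxKO values thus fell between the pairs of controls. Against all 4 controls the log2 difference was -0.12 (SE 0.18, edgeR adjusted p = 0.696). Against libraries 1 and 2 alone Gpi1 was higher (0.31, adjusted p = 0.00899), and against libraries 3 and 4 alone it was lower (-0.46, adjusted p = 0.00525).

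Phosphofructokinase commits sugar to glycolysis, and of its 3 subunit genes Pfkm, the muscle type, was the one that passed the test. Pfkm was at 11.9, 11.5, 15.6 and 17.4 CPM in MaxKO libraries 1 to 4 and at 35.9, 36.0, 34.5 and 31.8 CPM in Ctrl libraries 1 to 4. The groups were far apart. Ctrl was tight (34.5 ± 1.97 CPM), whereas MaxKO spread more (14.1 ± 2.84 CPM, SD, n = 4 each), with libraries 3 and 4 above 1 and 2. The log2 fold change of -1.29 (SE 0.13, edgeR adjusted p = 5.9e-05) ranged from -1.42 to -1.21 over 19 alternative fits and kept its call in all of them. The liver type Pfkl was at 162, 151, 135 and 135 CPM in MaxKO and at 114, 129, 132 and 142 CPM in Ctrl, where Ctrl library 4 lay within the MaxKO range (0.17, SE 0.09). The platelet type Pfkp was at 125, 131, 109 and 119 CPM in MaxKO and at 84.6, 99.5, 137 and 134 CPM in Ctrl, so that the controls lay on both sides of MaxKO (0.09, SE 0.14). Against Ctrl libraries 1 and 2 alone both were higher (0.26 and 0.39), and against libraries 3 and 4 alone neither passed. Per kilobase of exon in Ctrl, Pfkl stood at 34.6, Pfkp at 26.5 and Pfkm at 11.5 CPM, and in MaxKO Pfkm stood at 4.70 CPM.

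The PFKFB genes encode the enzymes that make and remove fructose 2,6-bisphosphate, the activator of phosphofructokinase. Pfkfb4 was at 6.37, 6.44, 6.03 and 7.53 CPM in MaxKO and at 10.1, 9.74, 8.49 and 11.8 CPM in Ctrl, with no overlap (-0.61, SE 0.13, edgeR adjusted p = 0.00663). Its log2 fold change ranged from -0.68 to -0.52 over the alternatives, and all kept the call. Pfkfb2 was at 40.7, 46.6, 43.8 and 44.5 CPM in MaxKO and at 48.1, 40.4, 38.4 and 44.5 CPM in Ctrl. Pfkfb1, Pfkfb2 and Pfkfb3 had overlapping groups and log2 differences of 0.31, 0.03 and -0.08, although Pfkfb1 was higher against Ctrl libraries 1 and 2 alone (0.61, adjusted p = 0.0110) and not against 3 and 4 (0.05, adjusted p = 0.888).

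Both measured aldolase genes fell. Aldolase cleaves the 6-carbon sugar, and Aldoc is the form best known from brain. Aldoc was at 6.58, 6.30, 6.98 and 6.51 CPM in MaxKO and at 12.7, 11.97, 15.5 and 17.5 CPM in Ctrl, with no overlap and a tight MaxKO group (-1.13, SE 0.14, edgeR adjusted p = 0.000197). Aldoa, the general form, was at 218, 185, 169 and 152 CPM in MaxKO and at 216, 282, 494 and 409 CPM in Ctrl. Here MaxKO library 1 exceeded Ctrl library 1, and Ctrl libraries 3 and 4 were the highest. The fall was -0.95 (SE 0.23, adjusted p = 0.0117) against all controls, -0.46 against Ctrl libraries 1 and 2 and -1.32 against Ctrl libraries 3 and 4. It missed the threshold without the count filter (adjusted p = 0.0556). Tpi1, the triose phosphate isomerase gene of the next step, was at 394 to 419 CPM in MaxKO and 408 to 506 CPM in Ctrl (-0.16, SE 0.08) and did not pass.

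**Figure D2:**
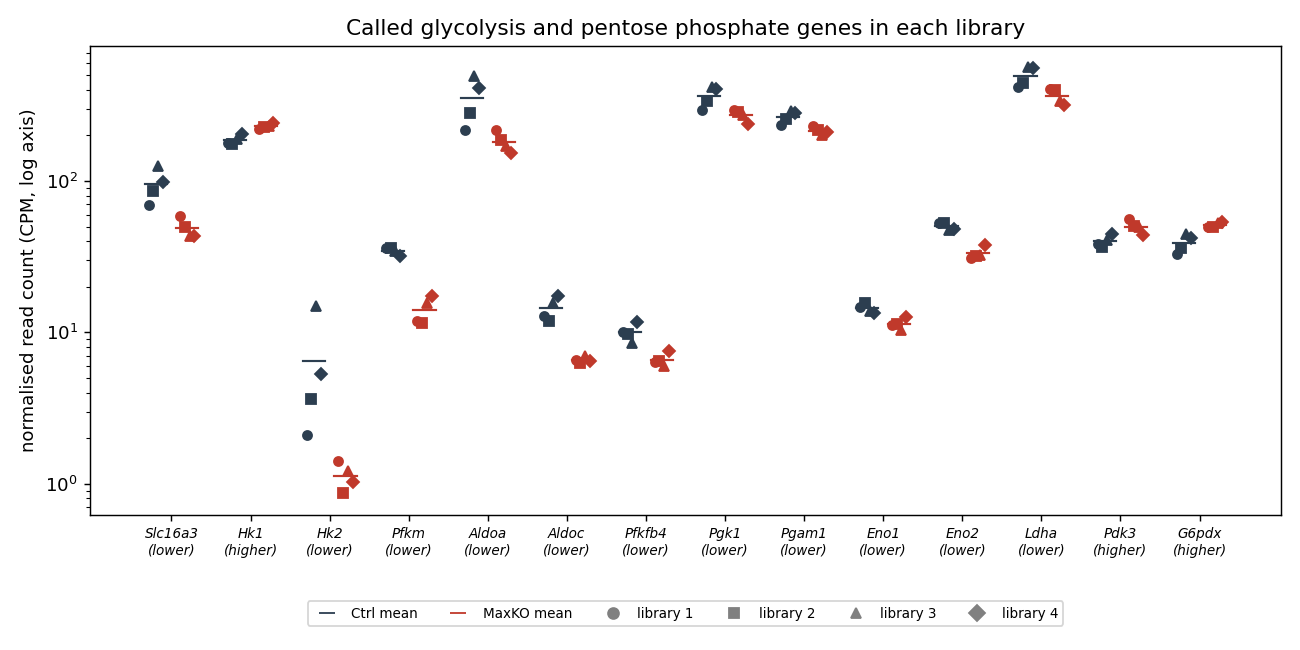
Normalised read count (CPM, log axis) of the 14 called members in each of the 4 Ctrl (dark) and 4 MaxKO (red) libraries, with marker shape for library number and a bar for the group mean. The groups are clear of each other for Pfkm (11.5 to 17.4 against 31.8 to 36.0 CPM) and overlap for Aldoa and Pdk3.

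In lower glycolysis, which yields ATP and pyruvate, 4 of 8 tested genes fell and none rose, with a median of -0.28. The neuronal enolase gene Eno2, also a marker of neuroendocrine cells, was at 31.2, 31.9, 32.5 and 37.7 CPM in MaxKO and at 52.8, 52.9, 47.4 and 47.8 CPM in Ctrl. These groups did not overlap (-0.59, SE 0.09, edgeR adjusted p = 0.000567), and all 19 alternatives kept the call. Pgk1, which encodes the first ATP-yielding kinase, was at 294, 285, 273 and 238 CPM against 296, 339, 419 and 406 CPM (-0.42, adjusted p = 0.0203). The phosphoglycerate mutase gene Pgam1 was at 231, 219, 200 and 209 CPM against 235, 255, 291 and 281 CPM (-0.31, adjusted p = 0.0227). For both, the ranges were separate but nearly met, and calls ended without MaxKO library 3 or 4 (adjusted p = 0.0546 and 0.0656 for Pgk1, 0.0788 and 0.0583 for Pgam1) and, for Pgam1, also without MaxKO library 2 (0.0590). Against Ctrl libraries 1 and 2 alone the falls were -0.22 for Pgk1 and -0.19 for Pgam1, and against libraries 3 and 4 alone -0.61 and -0.42, all past the threshold. The general enolase gene Eno1 was at 11.1, 11.3, 10.3 and 12.7 CPM in MaxKO and at 14.7, 15.6, 13.9 and 13.4 CPM in Ctrl. These ranges were separate (-0.34, SE 0.10, adjusted p = 0.0322), but 5 of the 8 fits without 1 library ended the call. Its fall was -0.42 (adjusted p = 0.00517) against Ctrl libraries 1 and 2 and -0.27 (adjusted p = 0.144) against Ctrl libraries 3 and 4. Gapdh (440 to 507 CPM in MaxKO, 473 to 724 CPM in Ctrl) did not pass against all controls (-0.26, SE 0.12, adjusted p = 0.140), but was lower against Ctrl libraries 3 and 4 (-0.43) and not against 1 and 2 (-0.08, adjusted p = 0.388). Pkm2, the pyruvate kinase gene at 546 CPM per kilobase in Ctrl, was at 1292 to 1332 CPM in MaxKO and 1302 to 1622 CPM in Ctrl (-0.11, SE 0.09). The muscle forms Pgam2 (0.24, SE 0.27) and Eno3 (-0.01, SE 0.09) did not pass either. Eno3 was at 28.1, 24.5, 25.6 and 27.1 CPM in MaxKO and at 24.3, 25.6, 29.5 and 26.8 CPM in Ctrl, with overlap.

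Several of these genes share sequence with other genes, and reads that align to several places are lost from such counts. Of the 50-base windows of the longest coding transcript, 82.5% for Gapdh, 72.2% for Eno1, 68.0% for Pgk1, 41.5% for Pgam1, 34.4% for Pkm2, 25.3% for Gpi1, 16.6% for Ldha and 13.5% for Aldoa occurred in a transcript of another gene, against 0% for Pfkm, Aldoc, Hk2, Pfkfb4 and Slc16a3 and 0.255% for Eno2. Shares of 10.7% to 25.1% were found for G6pdx, Taldo1, Pfkp, Rpe and Pfkfb2. Counts of genes with such shared windows are therefore less certain, and the low Eno1 level (5.66 CPM per kilobase in Ctrl, below 18.0 for Eno2 and 16.9 for Eno3) is not read as its true rank.

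At the lactate end, the dehydrogenase and one of its transporters were lower. Ldha, the form that dominates in glycolytic cells, was at 403, 396, 337 and 319 CPM in MaxKO libraries 1 to 4 and at 414, 446, 563 and 553 CPM in Ctrl libraries 1 to 4. The ranges did not overlap, although MaxKO libraries 1 and 2 lay close to Ctrl library 1 (-0.44, SE 0.12, edgeR adjusted p = 0.0189). The call ended without MaxKO library 3 (adjusted p = 0.0652) or 4 (0.0625). The fall was -0.24 against Ctrl libraries 1 and 2 and -0.62 against Ctrl libraries 3 and 4, both past the threshold. Ldhb, which encodes the heart form, was nearly undetected, with 1, 0, 1 and 0 counts in MaxKO and 2, 3, 13 and 3 counts in Ctrl, and was not tested. Slc16a3, which encodes the lactate exporter MCT4, was at 58.7, 49.4, 43.2 and 43.0 CPM in MaxKO and at 69.4, 85.3, 125 and 98.9 CPM in Ctrl. All MaxKO values were below all Ctrl values (-0.96, SE 0.17, adjusted p = 0.00214). The fall was -0.67 against Ctrl libraries 1 and 2 and -1.21 against Ctrl libraries 3 and 4, with the call kept in all 19 alternatives. Slc16a1, which encodes the more widespread transporter MCT1, was at 51.8, 48.7, 47.2 and 39.7 CPM in MaxKO and at 52.6, 49.8, 48.8 and 41.4 CPM in Ctrl, which overlap almost fully (-0.04, SE 0.10, adjusted p = 0.824).

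Among the kinases that restrain pyruvate dehydrogenase, Pdk3 rose. It was at 55.7, 50.4, 49.5 and 44.1 CPM in MaxKO and at 38.4, 36.5, 40.6 and 44.9 CPM in Ctrl, where Ctrl library 4 exceeded MaxKO library 4 (0.32, SE 0.09, edgeR adjusted p = 0.0292). Its call ended in 9 of 19 alternatives. It was 0.41 (adjusted p = 0.00130) against Ctrl libraries 1 and 2 and 0.22 (adjusted p = 0.186) against Ctrl libraries 3 and 4. Pdk1, a known target of HIF1, was at 62.5, 66.0, 55.7 and 48.0 CPM against 61.2, 63.7, 75.4 and 86.2 CPM, with overlap (-0.30, SE 0.13, adjusted p = 0.108). Against Ctrl libraries 3 and 4 alone it was lower (-0.49, adjusted p = 0.0133), and against libraries 1 and 2 alone it did not pass (-0.11, adjusted p = 0.406). Pdk2 was at 19.99, 19.4, 16.7 and 19.4 CPM in MaxKO and at 17.7, 17.02, 20.6 and 20.5 CPM in Ctrl and did not pass (-0.0045, SE 0.10), and Pdk4 had at most 7 counts in any library.

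In the pentose branch the first enzyme of the oxidative arm was the one called. G6pdx, the glucose 6-phosphate dehydrogenase gene, was at 49.5, 49.3, 52.6 and 53.8 CPM in MaxKO and at 32.9, 35.8, 44.9 and 41.8 CPM in Ctrl. All MaxKO values were higher (0.40, SE 0.10, edgeR adjusted p = 0.0129). Each fit without 1 library kept the call, with values of 0.32 to 0.48, but it was 0.58 (adjusted p = 1.7e-05) against Ctrl libraries 1 and 2 and 0.24 (adjusted p = 0.0859) against Ctrl libraries 3 and 4. The other oxidative genes did not pass, with 0.06 (SE 0.08) for the lactonase gene Pgls and -0.20 (SE 0.11) for Pgd, which encodes the second NADPH-yielding dehydrogenase. None of the 4 non-oxidative genes passed. Ribose phosphate isomerase gene Rpia was at 53.8 to 65.1 CPM against 44.9 to 56.3 CPM (0.21, SE 0.09), and epimerase gene Rpe at 30.5 to 36.8 against 29.7 to 44.9 CPM (-0.19, SE 0.13). The transketolase gene Tkt (-0.07, SE 0.13) and the transaldolase gene Taldo1 (0.15, SE 0.09) link the branch back to glycolysis. Against Ctrl libraries 1 and 2 alone, Rpia (0.34) and Taldo1 (0.20) were higher and Rpe (-0.40) was lower, and against libraries 3 and 4 alone no pentose gene passed.

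**Figure D3:**
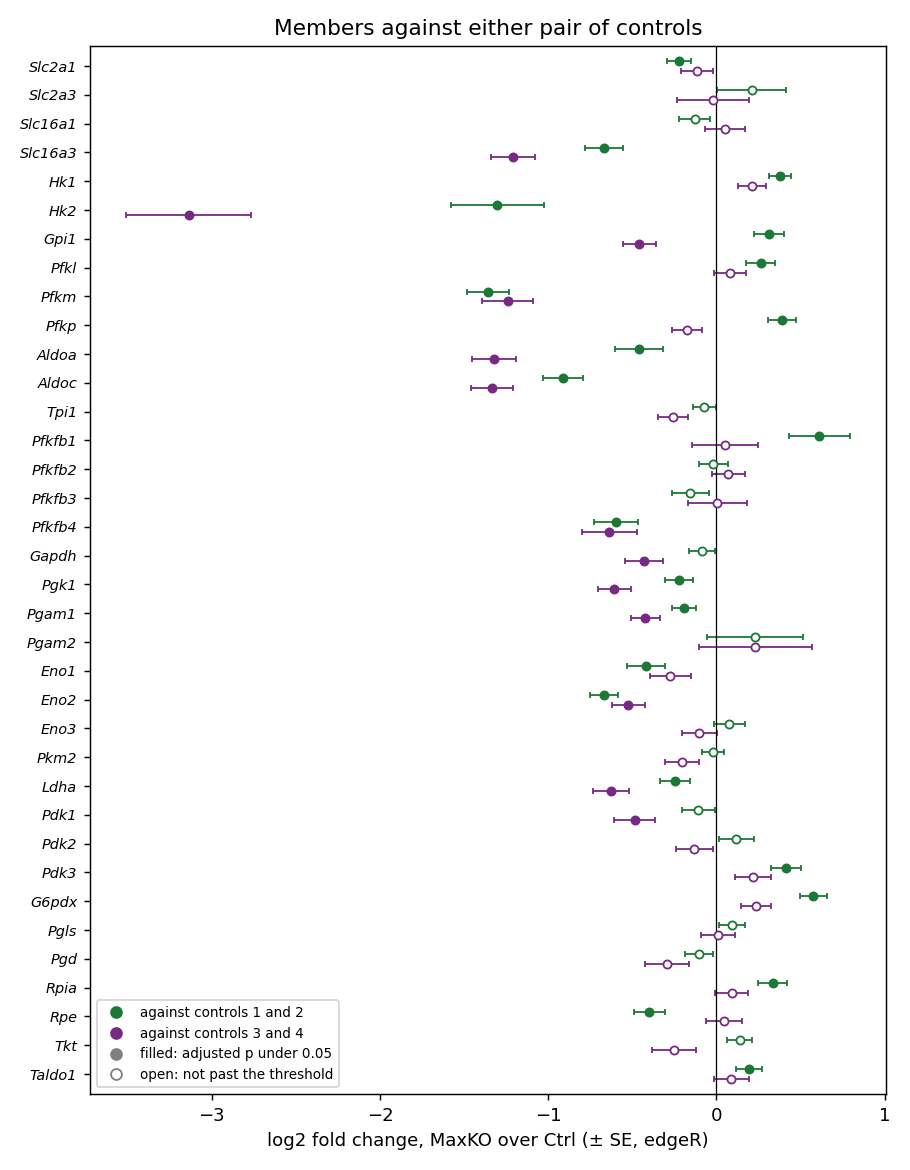
Log2 fold change (x axis, ± SE, edgeR) of each tested member in MaxKO against Ctrl libraries 1 and 2 (green) or against Ctrl libraries 3 and 4 (purple), with filled points past the threshold. Both comparisons use the same 4 MaxKO libraries, and Gpi1 is the member that passes in opposite directions (0.31 and -0.46).

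The balance between isoforms of a step was compared within each library as the log2 ratio of the counts of 2 genes, which does not depend on scaling. Of 14 listed pairs, 13 had both genes tested. In 8 of them the groups did not overlap, each with the smallest p that an exact two-sided permutation test over 70 assignments allows (p = 0.0286, adjusted p = 0.0464 over 13 pairs). The adjusted p rests on these 8 ties at the smallest p. Some pairs share a gene, so they are not independent. All of the 8 except Pdk1 to Pdk2 hold a gene called above, so the ratios partly restate those calls and are not separate support. The pairs were listed with earlier results of these data known, and no share over other gene pairs is given beside them. The log2 ratio of Hk2 to Hk1 was -7.26, -7.99, -7.53 and -7.84 in MaxKO and -6.38, -5.58, -3.66 and -5.26 in Ctrl, a difference of -2.43 (-1.91 without Ctrl library 3). Pfkm to Pfkl moved from -1.90 ± 0.21 in Ctrl to -3.38 ± 0.41 in MaxKO (SD, n = 4 each), a 2.80-fold shift away from the muscle form. Slc16a3 to Slc16a1 went from 0.95 ± 0.45 to 0.05 ± 0.13, and Pfkfb4 to Pfkfb2 from -2.10 ± 0.15 to -2.73 ± 0.14. Within the enolases, Eno2 fell relative to Eno1 by 0.25 on the log2 scale, whereas Eno3 rose relative to Eno1 by 0.33, with the uncertainty of Eno1 counts given above. Within the kinases, Pdk1 fell relative to Pdk2 by 0.30 and Pdk3 rose relative to Pdk2 by 0.32. Because the groups of these 8 pairs did not overlap, no omission of libraries could change their direction. This holds for leaving out any 1 library and for either pair of controls. The sizes differed most for Hk2 to Hk1 (-1.67 against Ctrl libraries 1 and 2, -3.197 against 3 and 4), Slc16a3 to Slc16a1 (-0.54 and -1.26) and Eno3 to Eno1 (0.50 and 0.17). The other 5 pairs overlapped, namely Slc2a3 to Slc2a1 (difference 0.28, exact permutation p = 0.114), Pfkp to Pfkl (-0.06, p = 0.60), Pfkfb3 to Pfkfb2 (-0.10, p = 0.686), Aldoc to Aldoa (-0.22, p = 0.371) and Pgam2 to Pgam1 (0.52, p = 0.171).

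**Figure D4:**
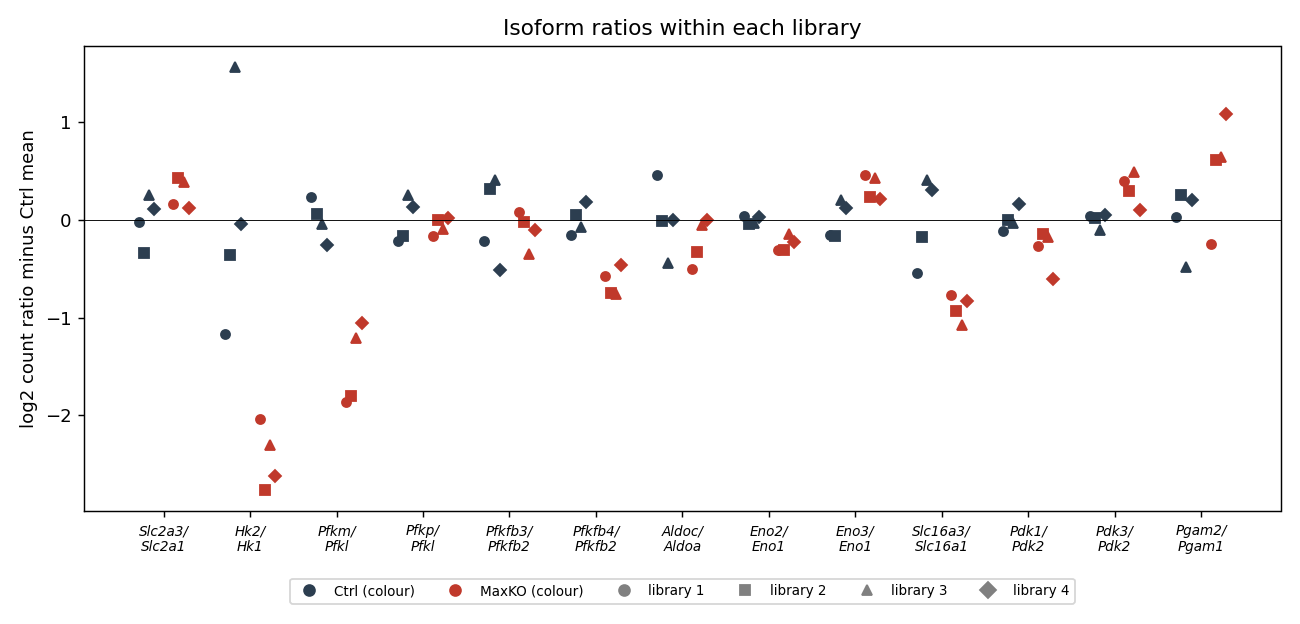
Log2 count ratio of the 13 tested isoform pairs in each library (y axis, minus the Ctrl mean of the pair), for Ctrl (dark) and MaxKO (red), with marker shape for library number. MaxKO points lie wholly below Ctrl for Hk2/Hk1, Pfkm/Pfkl, Pfkfb4/Pfkfb2, Eno2/Eno1, Slc16a3/Slc16a1 and Pdk1/Pdk2 and wholly above for Eno3/Eno1 and Pdk3/Pdk2.

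Because MAX pairs bind E-boxes, the promoter windows of the members (250 bases before to 50 after a start site, RefSeq, GRCm38.p6) were searched for CACGTG, which reads the same on both strands. A window was found for 37 of the 38 members, and 6 genes (16.2%) held an E-box, as did 8.09% of all 27025 genes in the table. A gene can have several windows, and the members had more per gene (57 for 37 genes) than all genes (32851 for 27025). By window, the E-box shares were 10.5% for members and 7.15% for all. By call, the 6 genes were 2 of 11 lower members (Ldha and Pfkm), 0 of 3 higher members and 4 of 21 uncalled members (Pdk2, Pfkfb2, Pfkfb3 and Slc16a1). The hypoxia core ACGTG or GCGTG on either strand, which every E-box also contains, was in 10 of 11 lower members, 3 of 3 higher members and 17 of 21 uncalled members, beside 46.7% of all genes. By window, its shares were 73.7% for members and 43.8% for all. The 80-base stretches that hold the E-boxes of the lower members are shown with that of Slc16a1, the transporter gene whose groups overlapped, with the E-box in capitals. They lie on the plus strand at chr7:46845622-46845701 and chr7:46845719-46845798 (Ldha, E-boxes starting 145 and 48 bases before the start site), chr15:98092416-98092495 (Pfkm, 136 bases before 1 of its 4 start sites) and chr3:104638427-104638506 (Slc16a1, 200 bases before).
Ldha, distal: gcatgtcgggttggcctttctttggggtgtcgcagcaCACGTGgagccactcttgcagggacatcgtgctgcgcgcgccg
Ldha, proximal: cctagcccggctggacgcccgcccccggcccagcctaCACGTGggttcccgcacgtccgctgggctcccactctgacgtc
Pfkm: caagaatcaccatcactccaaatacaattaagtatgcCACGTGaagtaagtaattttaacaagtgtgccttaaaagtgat
Slc16a1: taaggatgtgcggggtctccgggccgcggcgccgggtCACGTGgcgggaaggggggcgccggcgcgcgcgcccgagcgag
A match is a run of letters and not a measured binding site.

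Neighbouring pathways were described from lists named by function, with earlier results of these data known. Of 10 genes of gluconeogenesis and the glycerol phosphate shuttle, 5 were tested, and 3 rose and none fell. Gpd1, a cytosolic glycerol 3-phosphate dehydrogenase gene, which reoxidises NADH as lactate dehydrogenase does, was at 38.9, 41.2, 35.4 and 34.5 CPM in MaxKO and at 16.5, 15.8, 11.4 and 12.4 CPM in Ctrl. The groups were well separated (1.41, SE 0.12, edgeR adjusted p = 2.8e-05), and the call held in all 19 alternatives. Its mitochondrial partner Gpd2 rose from 42.9 ± 2.86 to 60.9 ± 3.59 CPM (SD, n = 4 each; 0.51) and kept its call in all of them. The related gene Gpd1l was at 51.9 CPM in MaxKO and 54.0 CPM in Ctrl, above Gpd1 in CPM, which is not divided by gene length. It did not pass (-0.058, edgeR adjusted p = 0.718). G6pc3, a glucose 6-phosphatase gene, rose by 0.38, but 9 of 19 alternatives ended this call.

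Of 11 tested genes for the entry of pyruvate into mitochondria, Brp44 was the one that passed. Brp44, an older symbol of the pyruvate carrier gene Mpc2, rose from 120 ± 2.10 to 182 ± 13.6 CPM (SD, n = 4 each; 0.60, edgeR adjusted p = 0.000163) and kept its call in all 19 alternatives. The related gene Brp44l was at 52.9 CPM in MaxKO and 58.2 CPM in Ctrl and did not pass (-0.14, edgeR adjusted p = 0.419). The genes of the dehydrogenase complex itself (Pdha1, Pdhb, Dlat, Dld and Pdhx) did not pass either. Among 18 other tested glucose and lactate genes, the D-lactate dehydrogenase gene Ldhd (-0.84) and the insulin-responsive transporter gene Slc2a4 (-0.76) fell, and the monocarboxylate transporter gene Slc16a7 (0.42) rose. The calls of Slc2a4 and Slc16a7 ended in 4 and 2 of 19 alternatives. Bsg, whose product carries MCT1 and MCT4 to the membrane, was at 475 to 516 CPM in MaxKO and 515 to 581 CPM in Ctrl and did not pass (-0.12, SE 0.07). Of 5 other tested pentose genes, H6pd, the hexose 6-phosphate dehydrogenase gene of the endoplasmic reticulum, rose (0.40), a call that ended in 10 of 19 alternatives. Of 12 tested glycogen genes, the phosphorylase gene Pygb (0.38) and the phosphorylase kinase gene Phka1 (0.35) rose and the branching enzyme gene Gbe1 (-0.34) fell. These calls ended in 1, 6 and 11 of 19 alternatives. The 5 lists were called at 60% (3 of 5), 9.09% (1 of 11), 16.7% (3 of 18), 20% (1 of 5) and 25% (3 of 12) in the order given, beside the 23.1% of all genes.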

How the data were processed

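RNA-seq read counts per gene symbol were deposited for 8 libraries, 4 MaxKO and 4 Ctrl. Per the submitters' processing notes, the authors used bcl2fastq 1.8.4, TopHat2 2.0.12 with the mm9 build, and HTSeq 0.6.1 for these counts. The sources used here name neither the annotation nor the strand setting, and reads of overlapping or antisense genes may be mixed. HTSeq's lines for unassigned reads were left out of library sizes. The MaxKO and Ctrl libraries were compared with edgeR 4.0.16 under R 4.3.3 (filterByExpr, TMM, robust quasi-likelihood F test, Benjamini-Hochberg over all 13358 tested genes), with SE derived from fold change and F. In a trial on simulated counts of 13273 genes, a log2 change of 0.5 was found for 53.7% of 67 genes, one of 1 for 89.6% of 67 and one of 2 for 93.9% of 66, with 11 false calls among 169. Only these genes were changed, a smaller share than the 23.1% called in the data, and no split between controls was simulated. These rates therefore need not hold for the data. Isoform ratios used a pseudocount of 0.5. Levels per kilobase divide mean CPM by the union of GENCODE M21 basic exons (GRCm38), since the lengths used in counting are unknown, and are approximate. Shared 50-base windows come from GENCODE M21 transcripts on both strands.

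Members and lists were chosen with earlier results of these data known. Values in every library are given for called members and for both genes of the 8 isoform pairs past the threshold, and up to 4 called genes per neighbouring list are named. Myc and Mycn, and Bsg, Gpd1l, Brp44l and the complex genes named as not passing, were chosen after their values were seen. Alternatives were RLE, upper-quartile and no scaling, 2 other filters, DESeq2 1.42.0, limma-voom (limma 3.58.1), no robust estimation, a replicate term and leaving out each library. Fits with only Ctrl libraries 1 and 2 or 3 and 4 were added after the data were seen.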

Additional observations from a re-analysis of the deposited data

Results flagged for a closer look

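With 36 tested members in each group, 72 sets of 4 libraries were examined for a library far from the others, and 3 had one, where chance gives about 1 in 20 such sets. Slc2a1, the glucose transporter gene, was at 63.2 CPM in Ctrl library 3 and at 74.3 to 76.0 CPM in the other controls. The transketolase gene Tkt was at 193 CPM in Ctrl library 3 and at 122 to 131 CPM in the other controls. The epimerase gene Rpe was at 36.8 CPM in MaxKO library 2 and at 30.5 to 30.8 CPM in the other MaxKO libraries.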

How the results depend on the processing

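Of the 11 lower members, 6 (Slc16a3, Hk2, Pfkm, Aldoc, Pfkfb4 and Eno2) kept their call in all 19 alternatives, and none of the 3 higher members did. Leaving out 1 library gave 7 to 12 lower and 1 to 4 higher members, with 7 lower without MaxKO library 3 and 1 higher without Ctrl library 2. Over all genes it gave 1139 to 1929 lower and 963 to 1846 higher genes (963 without MaxKO library 2), against 1627 and 1457 with all libraries. With only Ctrl libraries 1 and 2, 13 members were lower and 9 higher, beside 3081 lower and 2987 higher genes in all (44.6% called). With only Ctrl libraries 3 and 4, 13 members were lower and 0 higher (20.7% of all genes called). Gpi1 turned to 0.31 with only Ctrl libraries 1 and 2. The cause was not tested. DESeq2, limma-voom, RLE scaling, the stricter filter and the fit without robust estimation changed no member's call, upper-quartile scaling and plain library totals ended that of Pdk3, and no filter ended those of Aldoa and Eno1. A pseudocount of 2 left 8 isoform pairs past the threshold. Fits of ratios without 1 library cannot go below p = 0.0571 in the exact permutation test and were read for direction and size only. For pairs whose groups do not overlap, the direction is fixed in such fits.

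By the labels, same-numbered libraries share a number only. Their deviations from the group means correlated at -0.20, -0.012, 0.0020 and -0.11, and those of differently numbered libraries at -0.22 to 0.20. No label says whether the numbers pair the libraries, and 4 such values cannot decide it. With the replicate block, 8 members were lower and 2 higher (1324 lower and 1208 higher genes in all), and the calls of Pgam1, Eno1, Ldha and Pdk3 ended. An exact sign-flip test of the ratios by number cannot pass the threshold with 4 pairs. Depth limits Ldhb and Pdk4, which were too low to test.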
